A study of Mus musculus with 15 samples.

Results

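The 10 genes described here encode proteins that sit on, or act at, the lipid droplet: the perilipins Plin2, Plin3, Plin4 and Plin5, the CIDE proteins Cidea, Cideb and Cidec, the triglyceride lipase Pnpla2, its inhibitor G0s2 and the related lipase Pnpla3. They were chosen by symbol, with earlier results of these data known. All 10 were found among the 57132 gene identifiers of the count table, and all 10 were among the 18181 genes that passed the expression filter. Liver RNA came from male C57BL/6J mice, 8 weeks old at the start, of a common inbred laboratory strain. The animals of the SR9009 group were kept for 18 weeks on CDA-HFD, a high-fat diet without choline and with altered amino acids that models steatohepatitis with fibrosis. From week 12 they received daily intraperitoneal SR9009, an agonist of the clock repressors REV-ERB alpha and beta, at 100 mg/kg for the last 6 weeks. Vehicle mice had the same diet and daily injections of the carrier, 15% Kolliphor ELP in saline. Chow mice ate standard chow for the same time, and the labels mention no injections for them, so diet and injections cannot be told apart in comparisons with Chow. There were 5 SR9009, 5 Vehicle and 4 Chow libraries, each from its own mouse. For 1 more Chow sample the count table has no column, so it was not analysed here.

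A lipid droplet is a store of triglyceride and sterol ester under a single layer of phospholipid. Perilipins coat that layer and control access of lipases, CIDE proteins pass lipid from smaller to larger droplets at their contacts, and the lipase encoded by Pnpla2, known as ATGL, takes the first fatty acid from triglyceride. In fatty liver, hepatocytes enlarge their droplets, macrophages also take up lipid, and several droplet genes otherwise typical of adipose tissue, Cidec among them, can be switched on in hepatocytes.

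Library totals ran from 35231134 to 42165886 counts in SR9009, from 37034349 to 45542335 in Vehicle and from 29950509 to 42401630 in Chow. CPM is the usual depth-scaled read count, here with TMM-scaled library totals, and a floor of 3 counts in a library was at most 0.124 CPM. The tissue label fitted the defining hepatocyte genes: 8 hepatocyte markers, Alb and Ttr among them, summed to between 58700 and 74800 CPM in SR9009, between 71200 and 78000 CPM in Vehicle and between 96800 and 135000 CPM in Chow. The 10 macrophage markers summed to between 1990 and 2760 CPM in SR9009, between 2250 and 3360 CPM in Vehicle and between 270 and 426 CPM in Chow, so the diet-fed livers held far more macrophage RNA. In bulk tissue, a change in the number of cells of a type and a change in RNA per cell cannot be told apart. The diet-fed libraries also parted into 4 with few olfactory-type receptor genes detected (2 SR9009, 2 Vehicle; 58 to 76 genes) and 6 with many (3 SR9009, 3 Vehicle; 150 to 231 genes), a division that the labels do not mention. The 4 Chow libraries, at 45 to 105 genes, counted as few.

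Per kilobase of exon, Plin2 stood highest, and Cidea, Cideb and Pnpla3 were lowest in both diet-fed groups. The place of Cideb is uncertain, since 76.3% of its exon bases are shared with Nop9 on the opposite strand. Its counts may therefore hold only part of its reads. Mean levels of Plin2 were 149 CPM per kb in SR9009, 223 in Vehicle and 179 in Chow. G0s2 came next by mean in each group, at 38.6, 79.3 and 117 CPM per kb in SR9009, Vehicle and Chow. In SR9009 the range of G0s2 (22.5 to 66.9) spanned those of Pnpla2 (26.5 to 41.4) and Plin3 (22.8 to 27.4), so their order there is not resolved. The ranges of Plin2 and G0s2 did not overlap in SR9009 or in Vehicle, while in Chow the lowest Plin2 library (147) lay under the highest G0s2 library (181). Pnpla2, Plin3 and Plin5 formed a middle tier of 16.0 to 35 CPM per kb in SR9009, 21.3 to 34.2 in Vehicle and 18.5 to 25.1 in Chow. Cidec and Plin4 had lower means in Chow than in both diet-fed groups. Their means were 14.1 and 6.11 CPM per kb in SR9009, 26.5 and 6.93 in Vehicle and 3.91 and 1.62 in Chow. Of these means, only that of Cidec in Vehicle lay within the middle tier. In Vehicle the ranges of Pnpla2, Cidec, Plin3 and Plin5 overlapped, so their order there is not resolved. Exon lengths came from GENCODE M21, a different annotation release from the one counted.

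**Figure D1:**
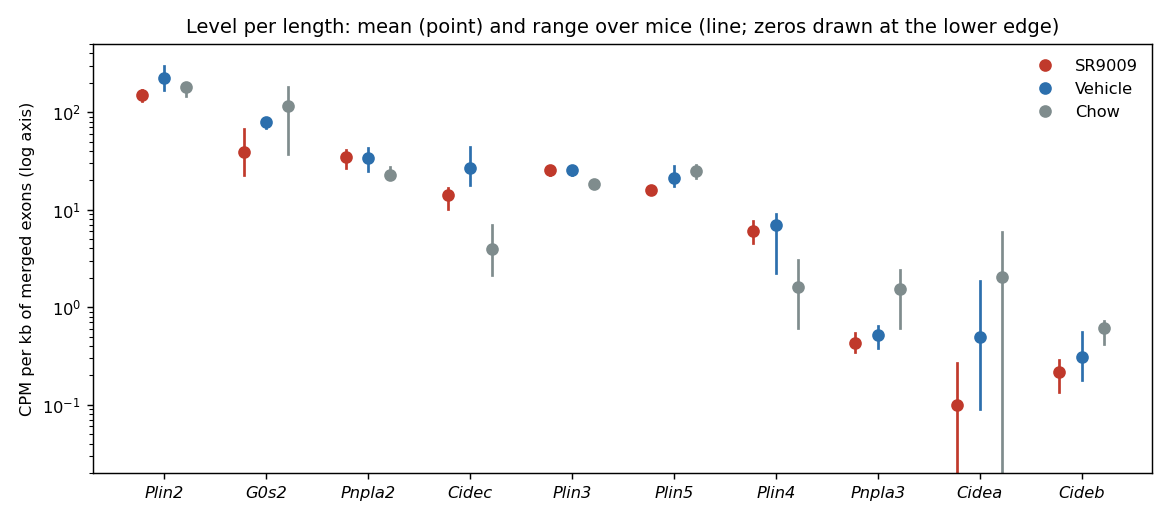
Mean CPM per kb of merged exons (log axis) for each of the 10 genes in SR9009, Vehicle and Chow livers, with the range over mice as a line. Plin2 is the highest in each group, at 149, 223 and 179 CPM per kb, and Cidec and Plin4 sit lower in Chow than in both diet-fed groups.

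The comparison of Vehicle with Chow asked how the steatohepatitis diet, with carrier injections, changed the droplet genes. Of the 10 genes, 4 rose and 2 fell in Vehicle livers. Over all tested genes 55.2% were called, 29.8% higher and 25.4% lower, so the share called among the droplet genes was near that of the transcriptome. Those that rose were Cidec, Plin4, Pnpla2 and Plin3, and those that fell were Pnpla3 and Cideb. The median log2 fold change of the 10 genes was 0.04, beside 0.02 over all tested genes, and the single values ran from -2.09 to 2.75. The groups did not overlap for Plin3 and Cidec, 2 of 10 genes, higher in Vehicle for both, where 45.4% of all tested genes did not overlap and 24.7% did so with Vehicle higher.

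**Figure D2:**
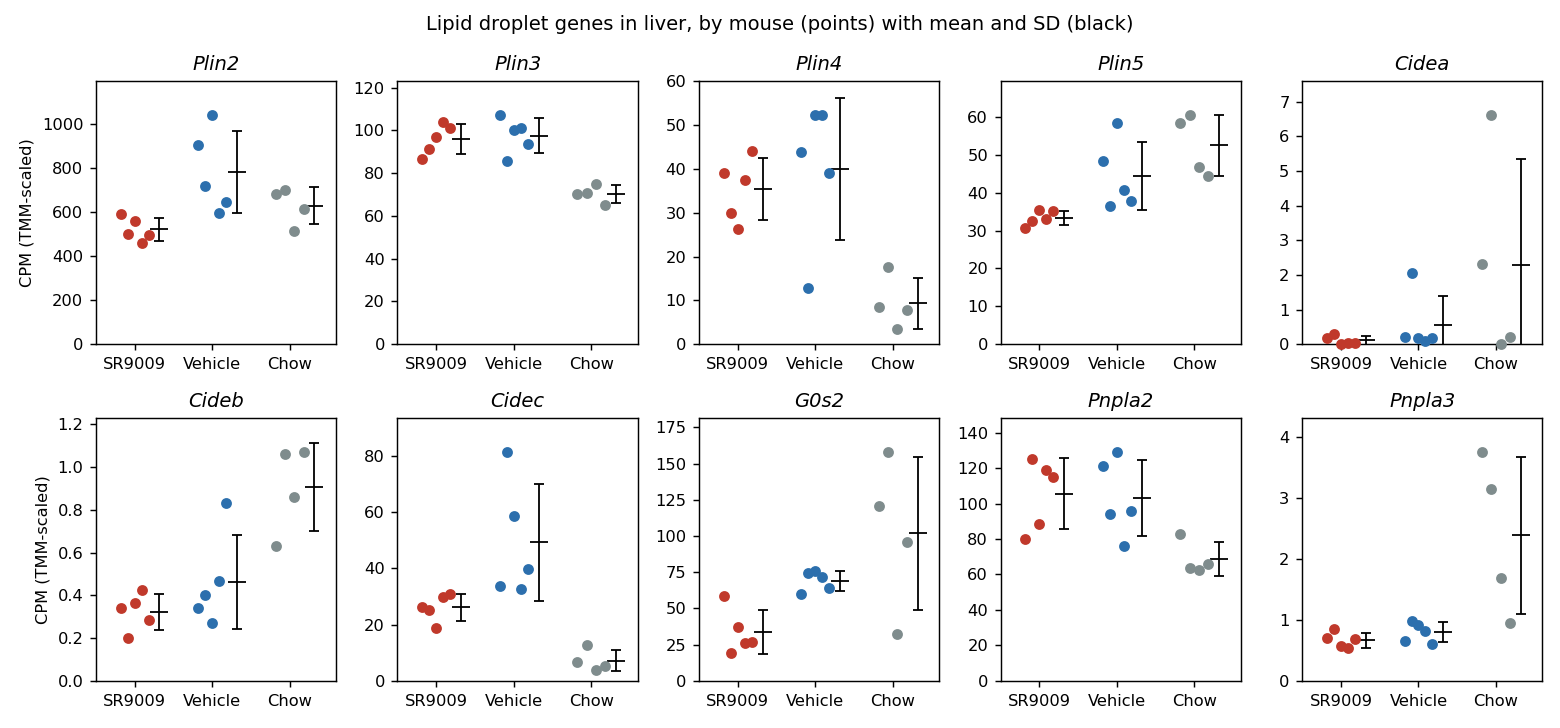
CPM (linear axes from 0) of the 10 genes in each SR9009, Vehicle and Chow liver, 1 point per mouse, with mean and SD in black. Cidec and Plin4 are raised in both diet-fed groups, and Plin2, Plin5, Cidec and G0s2 lie lower in SR9009 than in Vehicle with no overlap.

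Among the perilipins, Plin4 showed the widest difference with diet. Plin4 encodes an exchangeable coat protein most abundant in adipose tissue and muscle. It stood at 43.8, 12.8, 52.2, 52.2 and 39.1 CPM in Vehicle livers, against 8.46, 17.5, 3.57 and 7.83 CPM in Chow livers. Vehicle replicate 2, at 12.8 CPM, was the only Vehicle library inside the Chow range. Plin4 rose 4.26-fold in Vehicle (log2 fold change 2.09 ± 0.45 SE, adjusted p = 0.00137). Plin3, whose product moves from the cytosol onto newly formed droplets, was far steadier, with 107, 85.5, 100, 101 and 93.4 CPM in Vehicle and 70.4, 70.5, 75.0 and 64.9 CPM in Chow. It rose 1.39-fold (0.47 ± 0.08 SE, adjusted p = 0.000105), with every Vehicle library above every Chow library.

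Plin2 and Plin5 were not called with diet. Plin2, the main coat protein of hepatocyte droplets, measured 904, 718, 1040, 598 and 645 CPM in Vehicle and 684, 700, 516 and 615 CPM in Chow. The groups overlapped, and the ratio of Vehicle to Chow was 1.24 with a 95% interval of 0.994 to 1.56 (adjusted p = 0.0924). Without Vehicle replicate 4 Plin2 passed, at a log2 fold change of 0.40 (adjusted p = 0.0334). Plin5, which tethers droplets to mitochondria and restrains lipolysis in oxidative tissues, measured 48.3, 36.6, 58.4, 40.7 and 37.9 CPM in Vehicle and 58.3, 60.4, 46.9 and 44.3 CPM in Chow, a ratio of 0.845 (95% interval 0.699 to 1.02; adjusted p = 0.125). It passed as lower without Vehicle replicate 3 (-0.36, adjusted p = 0.0126). Within each liver, Plin4 reads per Plin5 read ranged from 0.350 to 1.28 in Vehicle and from 0.0763 to 0.289 in Chow, with no overlap. Plin2 reads per Plin5 read ranged from 13.9 to 19.3 in SR9009, from 14.7 to 19.6 in Vehicle and from 11 to 13.9 in Chow, so each Vehicle liver was above each Chow liver.

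Cidec and Cideb moved in opposite directions. Cidec, the CIDE gene of white adipose tissue that drives growth to large droplets, was at 33.7, 81.4, 58.5, 32.8 and 39.8 CPM in Vehicle livers and 6.88, 12.8, 3.94 and 5.40 CPM in Chow livers. Every Vehicle library exceeded every Chow library. Cidec rose 6.73-fold (log2 fold change 2.75 ± 0.36 SE, adjusted p = 2.56e-05) and kept its call in each of the 14 fits that left out 1 library. Cidea, the CIDE gene of brown fat, had 9, 88, 8, 5 and 9 reads in Vehicle and 66, 231, 0 and 5 reads in Chow. In Vehicle, replicate 2 held most of the Cidea reads, Chow replicates 1 and 2 held nearly all of the Chow reads, and no difference was called (adjusted p = 0.144).

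Cideb, the hepatocyte CIDE gene known for its part in loading lipid onto very low density lipoproteins, was lower in Vehicle (log2 fold change -0.97 ± 0.35 SE, adjusted p = 0.0272). It measured 0.342, 0.400, 0.269, 0.47 and 0.833 CPM in Vehicle and 0.632, 1.06, 0.861 and 1.07 CPM in Chow, with an overlap. Its call was lost in 5 of 14 fits without 1 library: without Vehicle replicate 1, 2 or 3 or Chow replicate 2 or 4 (log2 fold change from -0.92 to -0.82). These levels rest on 13 to 39 reads in a Vehicle library and 18 to 37 in a Chow library. In GENCODE M21 76.3% of the exon bases of Cideb are shared with Nop9, a protein-coding gene on the opposite strand, and no strand setting is given in the sources used here, so the counts of Cideb may hold only part of its reads. Nop9 itself averaged 20.7 ± 1.62 CPM in Vehicle and 25.4 ± 1.10 CPM in Chow (SD, n = 5 and 4).

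Of the lipase group, Pnpla2 rose and Pnpla3 fell in Vehicle. Pnpla2 was at 121, 93.9, 129, 76.1 and 95.9 CPM in Vehicle and 83.0, 63.4, 62.4 and 65.8 CPM in Chow, a 1.5-fold rise (log2 fold change 0.59 ± 0.16 SE, adjusted p = 0.00647). Only Vehicle replicate 4 lay inside the Chow range. Among the diet-fed livers Pnpla2 also went with the receptor gene division, from 76.1 to 95.9 CPM in the 4 libraries with few and from 93.9 to 129 CPM in the 6 with many. With that division as a term the call was lost (0.30, adjusted p = 0.055). Pnpla3, a lipase relative whose transcription is driven by the lipogenic factor SREBP-1c, stood at 0.662, 0.988, 0.911, 0.810 and 0.598 CPM in Vehicle and 3.75, 3.15, 1.69 and 0.948 CPM in Chow. Its log2 fold change was -1.59 ± 0.33 SE (adjusted p = 0.000654), although the lowest Chow library overlapped the Vehicle range.

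G0s2, which encodes the protein inhibitor of ATGL, was at 59.7, 74.4, 75.6, 71.9 and 63.9 CPM in Vehicle and 121, 158, 32.5 and 96.2 CPM in Chow. Chow replicate 3 was below every Vehicle library and the other three Chow libraries were above all of them. The ratio of Vehicle to Chow was 0.679 (95% interval 0.387 to 1.19; adjusted p = 0.227). Without Chow replicate 3 G0s2 passed as lower in Vehicle (-0.85, adjusted p = 0.0219).

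Whether the REV-ERB agonist altered the droplet genes of mice on the steatohepatitis diet was read from SR9009 against Vehicle libraries, which uses the Vehicle libraries again. In edgeR 0 of the 10 droplet genes were called, where 0.242% of all tested genes were. An unadjusted p under 0.05 was reached by 4 of 10, all lower, against 7.28% of all tested genes in either direction and 3.37% lower. DESeq2 called 1, Plin2. These 4, Plin2, Plin5, Cidec and G0s2, were lower in every SR9009 library than in every Vehicle library, and no droplet gene showed the opposite. Of all tested genes, 0.979% lay wholly lower and 1.87% did not overlap in either direction. Both shares concern the same 4 genes in the same libraries. The genes were chosen with earlier results of these data known, so neither share is a test of the set. The median log2 fold change of the 10 genes was -0.46, beside 0.00 over all tested genes. It includes Cidea (-2.24) and Cideb (-0.51), which have few reads.

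**Figure D3:**
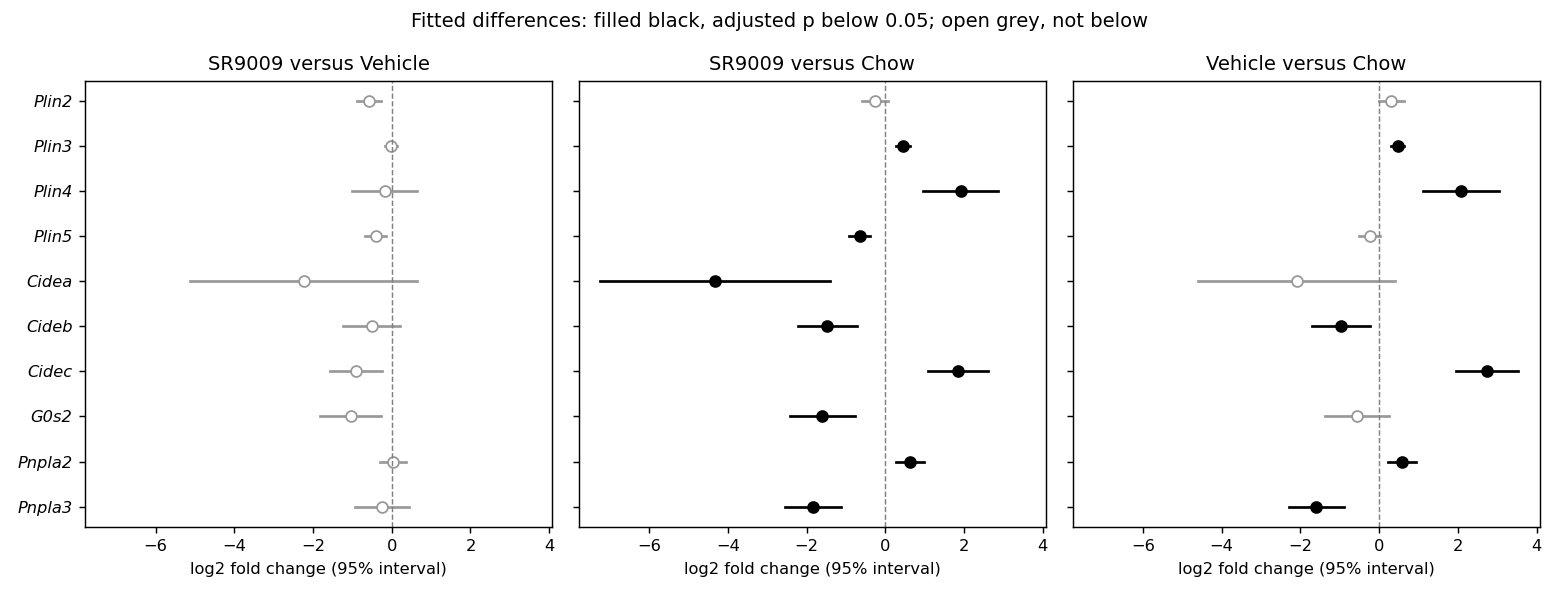
Log2 fold changes with 95% intervals for the 10 genes in SR9009 versus Vehicle, SR9009 versus Chow and Vehicle versus Chow, where filled black points have an adjusted p below 0.05. No gene is filled in SR9009 versus Vehicle, while 9 are filled in SR9009 versus Chow and 6 in Vehicle versus Chow.

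The 250 bases before the start sites of those 4 genes are shown because they are the genes whose SR9009 and Vehicle libraries did not overlap, and REV-ERB proteins bind an AGGTCA core. Sequences are from RefSeq on GRCm38.p6 and run 5′ to 3′ along the gene, with matches to the searched motifs in capitals on either strand.
Plin2, chr4:86670060-86670309, minus strand: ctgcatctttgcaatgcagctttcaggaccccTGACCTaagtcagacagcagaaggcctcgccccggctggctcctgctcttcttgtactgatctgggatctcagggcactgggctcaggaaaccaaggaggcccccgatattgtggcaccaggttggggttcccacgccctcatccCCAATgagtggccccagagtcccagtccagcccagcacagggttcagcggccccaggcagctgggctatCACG
Plin5, chr17:56117549-56117798, minus strand: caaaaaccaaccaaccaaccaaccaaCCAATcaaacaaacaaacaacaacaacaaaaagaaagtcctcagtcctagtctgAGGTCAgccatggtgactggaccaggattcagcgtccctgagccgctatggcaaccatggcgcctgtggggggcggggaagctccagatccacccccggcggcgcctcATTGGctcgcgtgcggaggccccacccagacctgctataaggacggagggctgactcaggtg
Cidec, chr6:113435761-113436010, minus strand: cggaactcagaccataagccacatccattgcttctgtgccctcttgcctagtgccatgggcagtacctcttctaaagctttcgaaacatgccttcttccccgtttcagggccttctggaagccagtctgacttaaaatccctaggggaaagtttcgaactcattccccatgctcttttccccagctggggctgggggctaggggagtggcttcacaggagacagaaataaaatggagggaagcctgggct
G0s2, chr1:193273189-193273438, minus strand: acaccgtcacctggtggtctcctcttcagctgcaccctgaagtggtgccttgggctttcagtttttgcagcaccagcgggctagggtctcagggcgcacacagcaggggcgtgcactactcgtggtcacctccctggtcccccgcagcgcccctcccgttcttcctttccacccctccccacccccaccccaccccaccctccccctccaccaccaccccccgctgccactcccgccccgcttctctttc

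Promoter windows ran from 250 bases before to 50 after the start and are reported for 9 of the 10 genes, all but Cidea. The core AGGTCA, read on both strands, was found in Plin2, starting at position -218, and in Plin5, at -170, and in 16.3% of the 32851 windows of all genes. Plin5 and Cidec have another start each, and AGGTCA also stood in the other Plin5 window, at position 13. No match was found in these windows for AANT directly before AGGTCA, 1 exact form of the longer element of REV-ERB and ROR proteins (0.219% of all windows). AGGTCA repeated in the same direction with 1 base between (0.0396%) and TTANNTAA (6%), the site of PAR bZIP factors, had no match either. Other forms and spacings were not searched. With shares as low as 0.219% and 0.0396%, an absence from so few windows was likely beforehand. The E-box CACGTG, the site of clock activators and many other factors, began 4 bases before the Plin2 start and ran across it, so the printed sequence ends with its first 4 letters; 7.15% of windows held 1. CCAAT was found in the Plin2, Plin3, Plin4, Plin5 and Pnpla3 windows and in 37.4% of all windows, and TATAAA in Cideb and in 13.6%. In the printed Cidec and G0s2 stretches none of these motifs was found.

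Plin2 measured 591, 503, 560, 459 and 497 CPM in SR9009 livers, against 904, 718, 1040, 598 and 645 CPM in Vehicle livers. The groups were parted by a small margin, since the highest SR9009 library, replicate 1, was 1.22% below the lowest Vehicle library, replicate 4. The log2 fold change was -0.58 ± 0.14 SE, a ratio of 0.668 (95% interval 0.541 to 0.825), and the adjusted p was 0.16 in edgeR and 0.0133 in DESeq2. In the fits without 1 library the adjusted p ran from 0.0834 to 0.391 and the log2 fold change from -0.66 to -0.46. The difference was -0.85 in log2 CPM among the 6 libraries with many receptor genes and -0.11 among the 4 with few, where means were 576 CPM in SR9009 and 621 CPM in Vehicle (n = 2 each). The difference between those values was not tested.

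Plin5 was at 30.7, 32.6, 35.3, 33.1 and 35.1 CPM in SR9009 livers, in a narrow band below the 48.3, 36.6, 58.4, 40.7 and 37.9 CPM of Vehicle livers. Its ratio was 0.752 (95% interval 0.628 to 0.90; adjusted p = 0.284). The coefficient of variation was 5.80% in SR9009 and 20.4% in Vehicle, and for Plin2 10.1% in SR9009 and 23.9% in Vehicle. Plin3 and Plin4, by contrast, overlapped broadly between the groups. Plin3 had a ratio of 0.984 (95% interval 0.882 to 1.10) and Plin4 one of 0.882 (0.494 to 1.57), a narrow interval for Plin3 and a wide one for Plin4. Plin2 reads per Plin3 read were 6.84, 5.51, 5.77, 4.43 and 4.92 in SR9009 and 8.44, 8.40, 10.4, 5.92 and 6.90 in Vehicle, with an overlap.

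Cidec was at 26.4, 25.2, 18.8, 29.8 and 31.0 CPM in SR9009 livers, against 33.7, 81.4, 58.5, 32.8 and 39.8 CPM in Vehicle livers. All 5 SR9009 libraries were below the lowest Vehicle library, the nearest, replicate 5, by 5.70%, and Vehicle replicates 2 and 3 were the highest. The ratio was 0.533 (95% interval 0.336 to 0.844; log2 fold change -0.91 ± 0.31 SE, adjusted p = 0.408). The log2 difference was -0.70 in the 4 libraries with few receptor genes and -0.93 in the 6 with many. Cidea had 8, 12, 0, 2 and 2 reads in SR9009 and 9, 88, 8, 5 and 9 reads in Vehicle (adjusted p = 0.801), and Cideb had a ratio of 0.702 (95% interval 0.425 to 1.16); neither was called.

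G0s2 was at 58.3, 19.6, 37.3, 26.1 and 26.7 CPM in SR9009 livers, against 59.7, 74.4, 75.6, 71.9 and 63.9 CPM in Vehicle livers. Of the 5 SR9009 libraries 4 lay far below Vehicle, while SR9009 replicate 1 was 2.26% under the lowest Vehicle library. The log2 fold change was -1.04 ± 0.36 SE, a ratio of 0.487 (95% interval 0.284 to 0.834; adjusted p = 0.434). Within the few and many receptor gene libraries it was -0.54 and -1.54. Pnpla2, the lipase that G0s2 inhibits, was at 80.1, 125, 88.7, 119 and 115 CPM in SR9009 and 121, 93.9, 129, 76.1 and 95.9 CPM in Vehicle, a ratio of 1.02 (95% interval 0.818 to 1.28). Reads of G0s2 per read of Pnpla2 in the same liver were 0.728, 0.157, 0.421, 0.218 and 0.232 in SR9009, 0.492, 0.792, 0.586, 0.945 and 0.667 in Vehicle and 1.45, 2.49, 0.521 and 1.46 in Chow. Only SR9009 replicate 1 reached the Vehicle range, and only Chow replicate 3 lay within the diet-fed range. Pnpla3 had a ratio of 0.842 (95% interval 0.524 to 1.35) and was not called.

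**Figure D4:**
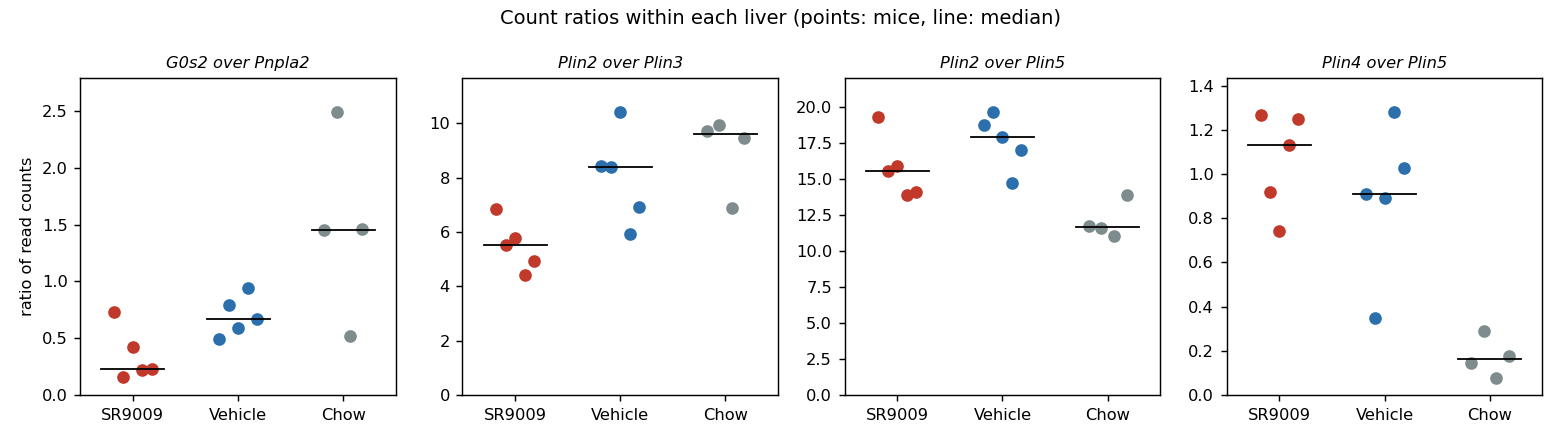
Read count ratios within each liver for 4 gene pairs in SR9009, Vehicle and Chow mice, 1 point per mouse with the group median as a line. The G0s2 to Pnpla2 ratio has medians of 0.232 in SR9009, 0.667 in Vehicle and 1.46 in Chow, and Plin4 to Plin5 has medians of 1.13 in SR9009, 0.908 in Vehicle and 0.161 in Chow.

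Markers of cell types were set beside these differences. Between SR9009 and Vehicle 0 of 8 hepatocyte markers were called in edgeR, and 0 in DESeq2, while 1 was lower at an unadjusted p under 0.05. Their median log2 fold change was -0.11, and their summed CPM had medians of 64800 in SR9009 and 77200 in Vehicle. The part of hepatocyte RNA in the lower droplet genes was not tested. Of 10 macrophage markers 0 were called in edgeR, and 0 in DESeq2, while 2 were lower at an unadjusted p under 0.05. Stellate markers were not called either (0 of 8, 0 in DESeq2, 3 higher at an unadjusted p under 0.05), and summed to between 381 and 612 CPM in SR9009 and between 406 and 473 CPM in Vehicle. Of 8 adipocyte markers 7 were matched, and they summed to between 3.84 and 9.46 CPM in SR9009, between 3.41 and 11.5 CPM in Vehicle and between 14.0 and 16.0 CPM in Chow. Most of that sum was Adrb3, at 3.66 to 9.36 CPM in SR9009, 3.22 to 11.2 CPM in Vehicle and 7.93 to 15.8 CPM in Chow, and in Chow also Cfd, at 0.0662 to 5.68 CPM. Of the others Lep had no read in any library, Adipoq was at most 0.0351 CPM and Plin1, the coat gene of adipocyte droplets, at most 0.0996 CPM. The 8 skeletal muscle markers summed to at most 0.445 CPM in SR9009, 0.753 CPM in Vehicle and 0.172 CPM in Chow. All 10 macrophage markers rose in Vehicle versus Chow and 7 of 8 hepatocyte markers fell, and their part in the droplet gene differences with diet was not tested.

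Against Chow, SR9009 livers had 4 droplet genes higher and 5 lower, 9 of 10, where 56.2% of all tested genes were called, 30.5% higher and 25.7% lower. For 6 of 10 genes the groups did not overlap (46.5% of all tested genes), 3 of them higher (25.5%) and 3 lower (21%). This comparison shares its SR9009 and Chow libraries with the comparisons above. Cidec rose 3.58-fold (1.84 ± 0.35 SE on the log2 scale, adjusted p = 0.000561), Plin4 3.76-fold higher (adjusted p = 0.00246), Pnpla2 1.54-fold higher (adjusted p = 0.00441) and Plin3 1.37-fold higher (adjusted p = 0.000162). The lower genes were Pnpla3, G0s2, Cideb, Plin5 and Cidea. Plin5 fell by 0.65 (SE 0.13, adjusted p = 0.000443), with all 5 SR9009 libraries below every Chow library, and G0s2 fell by 1.60 (SE 0.38, adjusted p = 0.00281), with Chow replicate 3 inside the SR9009 range. Pnpla3 fell by 1.84 (SE 0.33, adjusted p = 0.000203) and Cideb by 1.48 (SE 0.36, adjusted p = 0.00222). Plin2 alone was not called, at a ratio of 0.830 (95% interval 0.665 to 1.04; adjusted p = 0.144). The call of Cidea (adjusted p = 0.0143) was lost without Chow replicate 2, the library with 231 reads (-2.88, adjusted p = 0.0858). The groups overlapped at 0 reads, and Cidea did not pass the filter when only SR9009 and Chow libraries were fitted.

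The other genes of droplet biology set these changes in context. In Vehicle versus Chow, 3 of 16 tested genes for other droplet proteins rose and 8 fell (median log2 fold change -0.26, beside 0.02 over all tested genes). Over all tested genes 29.8% were called higher and 25.4% lower. Cavin1, a caveolar coat gene, rose 3.47-fold, Hilpda, which encodes another inhibitor of ATGL, 2.20-fold and Tmem159, which encodes a partner of seipin in droplet assembly, 2.51-fold. Ldah, Faf2 and Bscl2, the seipin gene, fell by 0.85, 0.37 and 0.36 on the log2 scale. The standard errors of these 6 log2 fold changes ran from 0.07 to 0.33 and the adjusted p was at most 0.00266. The breakdown list, drawn from outside the 10, held genes of neutral lipid breakdown and the phospholipase genes Pnpla6, Pnpla7 and Pnpla8. Of its 14 genes 11 fell, those phospholipase genes among them, where 25.4% of all tested genes did (median log2 fold change -0.76). In edgeR, in DESeq2 or at an unadjusted p under 0.05, 0 rose. The hepatocyte markers moved with the breakdown genes, 7 of 8 lower with a median of -0.84, and their part in this fall was not tested. The carboxylesterase genes Ces1f and Ces1d fell by 2.71 and 2.23 and Aadac by 1.44, with standard errors of 0.13 to 0.19, adjusted p at most 2.21e-07 and every Vehicle library below every Chow library; the Ces1 genes are similar in sequence and their separate values are uncertain.

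The synthesis list held glycerolipid genes and the sterol acyltransferase genes Soat1 and Soat2. It was divided, with 6 of 17 higher and 6 lower in Vehicle (median 0.02). Of all tested genes 29.8% were called higher and 25.4% lower. Soat1, the sterol acyltransferase of macrophages and other cells, rose 7.60-fold, Gpat3 8.04-fold and the monoacylglycerol acyltransferase gene Mogat2 12.1-fold, while Agpat2, Gpat4 and Gpam fell by 0.98, 0.85 and 1.40 on the log2 scale (standard errors 0.09 to 0.37, adjusted p at most 1.67e-05 for these 6 genes). Among 18 regulators and fat uptake genes 4 rose and 11 fell (median -0.62). Lpl, which releases fatty acids from lipoproteins, rose 21.3-fold, the fatty acid receptor gene Cd36 4.89-fold and Pparg, an adipogenic nuclear receptor, 1.89-fold. Mttp, which loads lipid onto lipoproteins, Fabp1 and Creb3l3 fell by 1.18, 1.36 and 0.70 on the log2 scale. Over these 6 genes the standard errors ran from 0.10 to 0.26 and the adjusted p was at most 0.000193.

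Between SR9009 and Vehicle none of these 4 lists had a gene called in edgeR (0 of 16, 0 of 14, 0 of 17 and 0 of 18). At an unadjusted p under 0.05 there were 1, 3, 2 and 2 genes, of which 1, 2, 1 and 0 were higher and 0, 1, 1 and 2 lower. Mgll and Lpl, like the 4 droplet genes, were lower in every SR9009 library than in every Vehicle library. Their log2 fold changes were -0.39 and -0.40 (edgeR adjusted p = 0.242 and 0.552). Over all tested genes 0.242% were called, and 7.28% had an unadjusted p under 0.05. DESeq2 called 1, Mogat2, higher in SR9009 with a mean of 5.24 ± 1.96 CPM against 2.72 ± 0.797 CPM in Vehicle (SD, n = 5 each; edgeR adjusted p = 0.223). Their median log2 fold changes were 0.04, -0.01, 0.06 and -0.06, beside -0.46 for the 10 droplet genes, a median that includes the thinly counted Cidea and Cideb. Pparg had a ratio of 0.964 (adjusted p = 0.988) and Ppara one of 0.946 (adjusted p = 0.985). In SR9009 versus Chow, 30.5% of all tested genes were called higher and 25.7% lower. Of the 16 other droplet protein genes 3 rose and 6 fell. By the smallest adjusted p, Cavin1 (4.57-fold), Tmem159 (2.72-fold) and Hilpda (1.68-fold) were higher and Ldah, Faf2 and Bscl2 lower. Of the 14 breakdown genes 11 fell and 0 rose in edgeR, in DESeq2 and at an unadjusted p under 0.05, led by Ces1f, Aadac and the monoglyceride lipase gene Mgll. Of the 17 synthesis genes 5 rose, led by Soat1 (6.54-fold), Gpat3 (7.79-fold) and Mogat2 (23.3-fold), and 5 fell, led by Gpat4, Agpat2 and Gpam. Of the 18 regulators and uptake genes 4 rose, led by Lpl (16.2-fold), Cd36 (4.54-fold) and Pparg (1.82-fold), and 13 fell, led by Fabp1, Mttp and Creb3l3. The adjusted p of the genes named for SR9009 versus Chow was at most 0.00893.

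**Figure D5:**
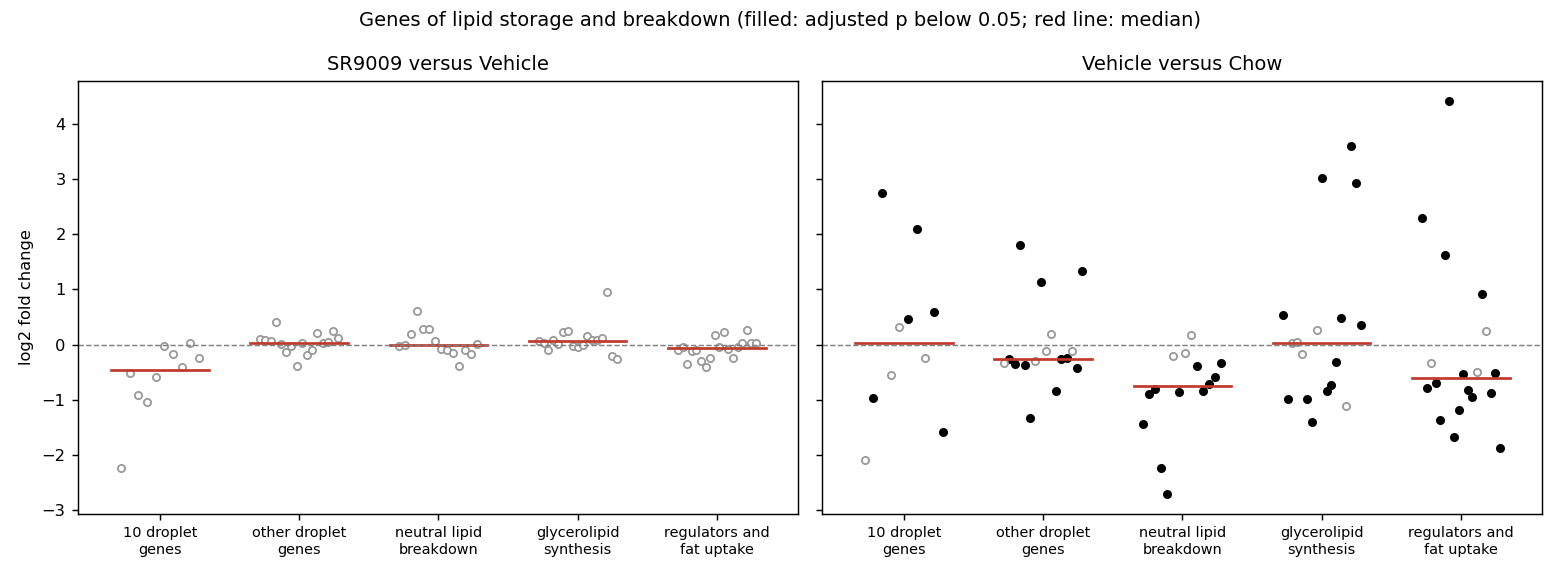
Log2 fold changes of the tested genes in the 10 droplet genes and 4 related lists, for SR9009 versus Vehicle and Vehicle versus Chow, with filled points at an adjusted p below 0.05 and the list median as a red line. With SR9009 no point is filled and the droplet genes have a median of -0.46, while with diet the breakdown genes have a median of -0.76.

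Genes with profiles most like those of the droplet genes were found by the root mean square difference of centred log2 CPM over the 14 libraries. For Plin2, whose own spread around its mean was 0.320, the nearest were Crot (0.178), Zfp94 (0.206) and Cpt1a (0.207). Crot encodes a carnitine acyltransferase of peroxisomes and Cpt1a one of mitochondria. For Cidec, with a spread of 1.23, they were Cdkn1a (0.366), Myo15b (0.416) and Cenps (0.425). For Plin4, with a spread of 1.16, they were Endod1 (0.404), Stk32c (0.460) and Ska3 (0.475). G0s2, with a spread of 0.853, was nearest to Acss3 (0.478), Elovl5 (0.507) and Hectd2 (0.522). For Pnpla3, with a spread of 0.839, the nearest gene was Cry1 (0.330), a clock repressor, followed by Ccnf (0.377) and Pdk1 (0.398). Plin3, with a spread of 0.229, was nearest to Coro1b (0.0699), Dnal4 (0.0769) and Cenpb (0.0832). For Plin5, with a spread of 0.321, they were Lrfn3 (0.153), Pknox1 (0.167) and Zfp955b (0.169). Pnpla2, with a spread of 0.360, was nearest to Cst3 (0.139), Particl (0.140) and Rhod (0.148), and Cideb, with 0.725, to Impg2 (0.279), Col5a3 (0.327) and Nlrp6 (0.348). Cidea had no close match, since the nearest gene, Esrrb, was at 1.94 beside a spread of 2.53, with Acot3 at 1.94 and Npnt at 1.95.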

How the data were processed

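Bulk liver RNA was sequenced, and the authors deposited raw, unnormalized counts for each Ensembl gene and library. The submitters' processing notes name STAR 2.7.11b and the build GRCm39. The counting tool, its annotation release and its strand setting are not given by the sources at hand. Symbols came from a GENCODE M21 table and matched 90.8% of identifiers, which held 99.6% of counts. Promoters came from RefSeq (GRCm38.p6) and no coordinates were converted.

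Counts were tested in edgeR 4.0.16 (R 4.3.3) with filterByExpr (minimum count 10, minimum total 15), TMM scaling, robust quasi-likelihood fits over all 14 libraries and Benjamini-Hochberg adjustment (18181 genes, threshold 0.05). A standard error is the log2 fold change over the square root of its F, and the 95% intervals follow from it. Log2 CPM used a prior count of 0.5, and floors cover counting error only. Alternatives were DESeq2 1.42.0 as test or for size factors alone, no filter and a stricter filter, fits of 1 pair of groups, the replicate number as a block, the receptor gene division as a term, and each library left out in turn. The pipeline was tested on simulated data.

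Genes and lists were chosen with earlier results of these data known. The naming rule gave all 10 genes, up to 3 genes per direction, list and comparison by adjusted p where a list was described by name, and 3 nearest profiles per gene. Mgll, Lpl, Mogat2, Pparg and Ppara between SR9009 and Vehicle were named after their values were seen. Every pair of libraries in a group differed beyond counting noise (the mean chi-square per gene was at least 15.9), and each counts as its own sample. The receptor gene division, made over 1752 chemosensory receptor genes (olfactory, vomeronasal, trace amine), was drawn from the counts at 113 genes with a read.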

Additional observations from a re-analysis of the deposited data

Results flagged for a closer look

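A test for 1 library lying far from the rest of its group was applied to 30 sets (10 genes in 3 groups), and such a test marks about 1 in 20 sets by chance. It marked 2. Cidea in Vehicle livers had 1 library, replicate 2, at 2.07 CPM, while the nearest of the others was at 0.205 CPM. That library also had the highest Cidec (81.4 CPM) and the lowest Plin4 (12.8 CPM) of the Vehicle group. Pnpla2 in Chow livers had replicate 1 at 83.0 CPM, with the nearest of the others at 65.8 CPM.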

How the results depend on the processing

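The number of droplet genes called was within 1.5 times the main count in every alternative but 1. DESeq2 called 1 droplet gene in SR9009 versus Vehicle in place of 0. Over all genes, the 44 calls of that comparison became 198 in DESeq2, 78 with the receptor gene division as a term and 15 with the replicate block, and from 18 to 56 without 1 library (at most 27 without SR9009 replicate 1, 3, 4 or 5 or Vehicle replicate 1, 3 or 4); the cause was not tested. Same-numbered libraries did not deviate together (correlations from -0.40 to 0.24), so the numbers do not pair the mice. With the replicate block the counts of droplet genes called were 6 in Vehicle versus Chow, 0 in SR9009 versus Vehicle and 9 in SR9009 versus Chow. Without 1 library the counts of droplet genes called ran from 5 to 7 in Vehicle versus Chow, stayed at 0 in SR9009 versus Vehicle, and ran from 8 to 9 in SR9009 versus Chow. All-gene counts ran from 9248 to 10059 in Vehicle versus Chow and from 9450 to 10287 in SR9009 versus Chow. In SR9009 versus Vehicle 2 values near 0 changed sign without 1 library, Plin3 over a range of -0.07 to 0.01 and Pnpla2 over -0.06 to 0.13; Plin3 was 0.01 without SR9009 replicate 1 or Vehicle replicate 1, and Pnpla2 was -0.03, -0.01 and -0.06 without SR9009 replicate 2 or 4 or Vehicle replicate 4. Beyond the changes named in the report, Cideb in Vehicle versus Chow was not called without a filter (-0.94, adjusted p = 0.0747) or with the receptor gene division (-0.67, adjusted p = 0.151). Cidea did not pass the filter without SR9009 replicate 2 or Vehicle replicate 2, nor in the fits of only the groups compared in any of the 3 comparisons, where 8 droplet genes were called in SR9009 versus Chow, nor did Cidea and Cideb under the stricter filter (1 CPM in 4 libraries). Cidea and Cideb are limited by depth, at 0 to 231 and 8 to 39 reads per library.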
